A study of Mus musculus with 8 samples.

Results

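The endoplasmic reticulum (ER) chaperones and the unfolded protein response were examined here through 10 genes, taken by symbol from the deposited tables: Hspa5, Hsp90b1, Pdia3, Pdia4, Pdia6, Calr, Canx, Dnajb9, Xbp1 and Herpud1. All 10 were found among the 55401 genes of each table, and all 10 were among the 12122 genes that reached a TPM (a share of all transcripts, scaled to a fixed total per sample) of at least 1 in at least 4 of the 8 samples. The cells were AML12, an established mouse hepatocyte line derived from a mouse carrying a human TGF-alpha transgene, grown with fetal bovine serum, dexamethasone, insulin, transferrin and selenite. There were 2 conditions with 4 dishes each. The exposed dishes were kept for 1 h in weak magnetic pulses of 4 ms from a coil, at frequencies stepping from 1 to 8 Hz and a peak intensity of 100 mG (Opti-ELF-WMF). The control dishes came from the same culture batch and were held for the same time in a second incubator of that model, where the coil was not powered, so that exposure and incubator cannot be told apart. Since the dishes came from a single batch of culture, the p-values below measure only the spread between these dishes. Read depth is unknown, because TPM keeps no read totals.

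Secretory cells such as hepatocytes fold their secreted proteins in the ER. When unfolded protein builds up there, the membrane sensors IRE1 (gene Ern1), PERK (Eif2ak3) and ATF6 (Atf6) start the unfolded protein response: IRE1 splices the messenger RNA of Xbp1 into the form that encodes an active transcription factor, PERK slows translation and favours the making of ATF4, and ATF6 is cleaved to release a transcription factor. XBP1 and ATF6 then raise chaperones and folding enzymes through promoter elements called ERSE (ER stress response element). Gene-level TPM adds spliced and unspliced Xbp1 together, so the splicing itself was not measured.

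The cell type was checked by its markers. Hepatocyte genes were present, with Krt8 at 2248 TPM, Ttr at 358 TPM and Hnf4a at 187 TPM on average in control dishes, while Alb had only 55.1 TPM, Apoa1 4.54 TPM and Afp 1.03 TPM. The biliary genes Krt19 (1153 TPM) and Spp1 (384 TPM) were high in the same dishes, and Epcam stayed at or under 0.13 TPM. All 8 stellate and fibroblast markers and all 5 endothelial markers stayed under 1 TPM in every dish, as did 5 of the 6 macrophage and leukocyte markers. Cd68 was the exception, at no more than 2.21 TPM.

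The promoters of the 10 genes are shown because 5 of them share an exact ERSE. The choice of the genes by symbol did not use it. Since the element is known from chaperone genes, its share among the 10 is a description and not an independent result. The windows are from RefSeq, build GRCm38.p6, from 250 bases before to 50 after the annotated start, and each of the 10 genes matched 1 window. The ERSE was searched as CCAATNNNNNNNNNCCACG on both strands, which reads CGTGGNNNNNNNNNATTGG on the other strand. It was found in the windows of Hspa5, Hsp90b1, Pdia6, Calr and Canx, against 0.119% of all 32851 promoter windows. Each line below runs 5′ to 3′ on the strand of the gene, with the match in capitals. The Hspa5 stretch is shorter because the GENCODE M21 model of that gene starts upstream of the RefSeq start.

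Hspa5, chr2:34772020-34772048, plus strand: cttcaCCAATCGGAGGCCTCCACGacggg
Hsp90b1, distal, chr10:86705623-86705671, minus strand: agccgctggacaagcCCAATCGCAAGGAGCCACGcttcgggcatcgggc
Hsp90b1, proximal, chr10:86705518-86705566, minus strand: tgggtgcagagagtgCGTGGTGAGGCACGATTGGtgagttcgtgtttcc
Pdia6, chr12:17266476-17266524, plus strand: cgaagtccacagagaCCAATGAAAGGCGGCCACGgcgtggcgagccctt
Calr, chr8:84847060-84847108, minus strand: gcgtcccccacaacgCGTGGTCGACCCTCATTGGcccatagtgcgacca
Canx, chr11:50325785-50325833, minus strand: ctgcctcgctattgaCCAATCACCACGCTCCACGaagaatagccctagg

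The matches began 65 bases before the start in Hspa5, 212 and 107 in Hsp90b1, 98 in Pdia6, 162 in Calr and 145 in Canx. With the last base of the element left free (CCAATNNNNNNNNNCCAC, which includes every exact match), Pdia3, Pdia4 and Herpud1 matched too, which made 8 of the 10 genes against 0.365% of all windows. Herpud1 alone of the 10 held ERSE-II (ATTGGNCCACG; 0.0365% of windows) and also the ATF4-type element TTGCATCA (CARE; 0.895% of windows). The XBP1-type element TGACGTGG (UPRE) was in none of the 10 and in 0.676% of all windows. A match is a description of letters and not a site shown to be bound.

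Pdia3, ERSE with a free last base, chr2:121413868-121413895, plus strand: cgcagCCAATCGGCGGCTGCCACactgc
Pdia4, ERSE with a free last base, chr6:47813587-47813634, minus strand: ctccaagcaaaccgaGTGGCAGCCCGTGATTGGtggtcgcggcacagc
Herpud1, ERSE-II, chr8:94386372-94386392, plus strand: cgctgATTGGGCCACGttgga
Herpud1, CARE, chr8:94386312-94386329, plus strand: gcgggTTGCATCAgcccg

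Xbp1 and Dnajb9 held none of these elements. In the 250 bases before the RefSeq start of Xbp1, shown here whole, there was no CCAAT (or ATTGG) and no CCACG (or CGTGG), letters that 33.8% and 28.3% of all promoters, and 9 and 7 of the 10 genes, carry in the same stretch.

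Xbp1, chr11:5520391-5520640, plus strand: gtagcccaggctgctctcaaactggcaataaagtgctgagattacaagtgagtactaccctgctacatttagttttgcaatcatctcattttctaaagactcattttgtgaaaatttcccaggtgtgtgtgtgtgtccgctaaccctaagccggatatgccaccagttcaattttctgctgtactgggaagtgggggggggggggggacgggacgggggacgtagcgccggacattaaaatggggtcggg

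The first question was whether any of the 10 genes differed between the conditions. No gene of the 10 passed Benjamini-Hochberg adjusted p under 0.05 (limma over all 12122 genes tested), and 0 of the 12122 (0.0%) did, while 1894 had an unadjusted limma p under 0.05. At an unadjusted limma p under 0.05, 0 of the 10 were higher in exposed dishes, against 12.0% of all tested genes, and 1 of the 10, Xbp1, was lower, against 3.65%. The 4 exposed and 4 control values did not overlap in the same single gene: 0 of the 10 lay higher in all exposed dishes, against 8.01% of tested genes, and 1 lay lower, against 1.86%. Under upper-quartile scaling, median-of-ratios scaling and rescaling without mitochondrial genes, Xbp1 was again the only one of the 10 without overlap. Of tested genes, 3.37%, 3.80% and 3.83% then lay higher without overlap, and 4.03%, 3.82% and 3.25% lower. A single gene is the smallest share above 0 that 10 genes can give. In the point estimates 9 of the 10 genes were above 0 with the deposited TPM, but only 3 (Pdia3, Pdia4 and Canx) under upper-quartile scaling, median-of-ratios scaling or TPM rescaled without mitochondrial genes.

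**Figure D1:**
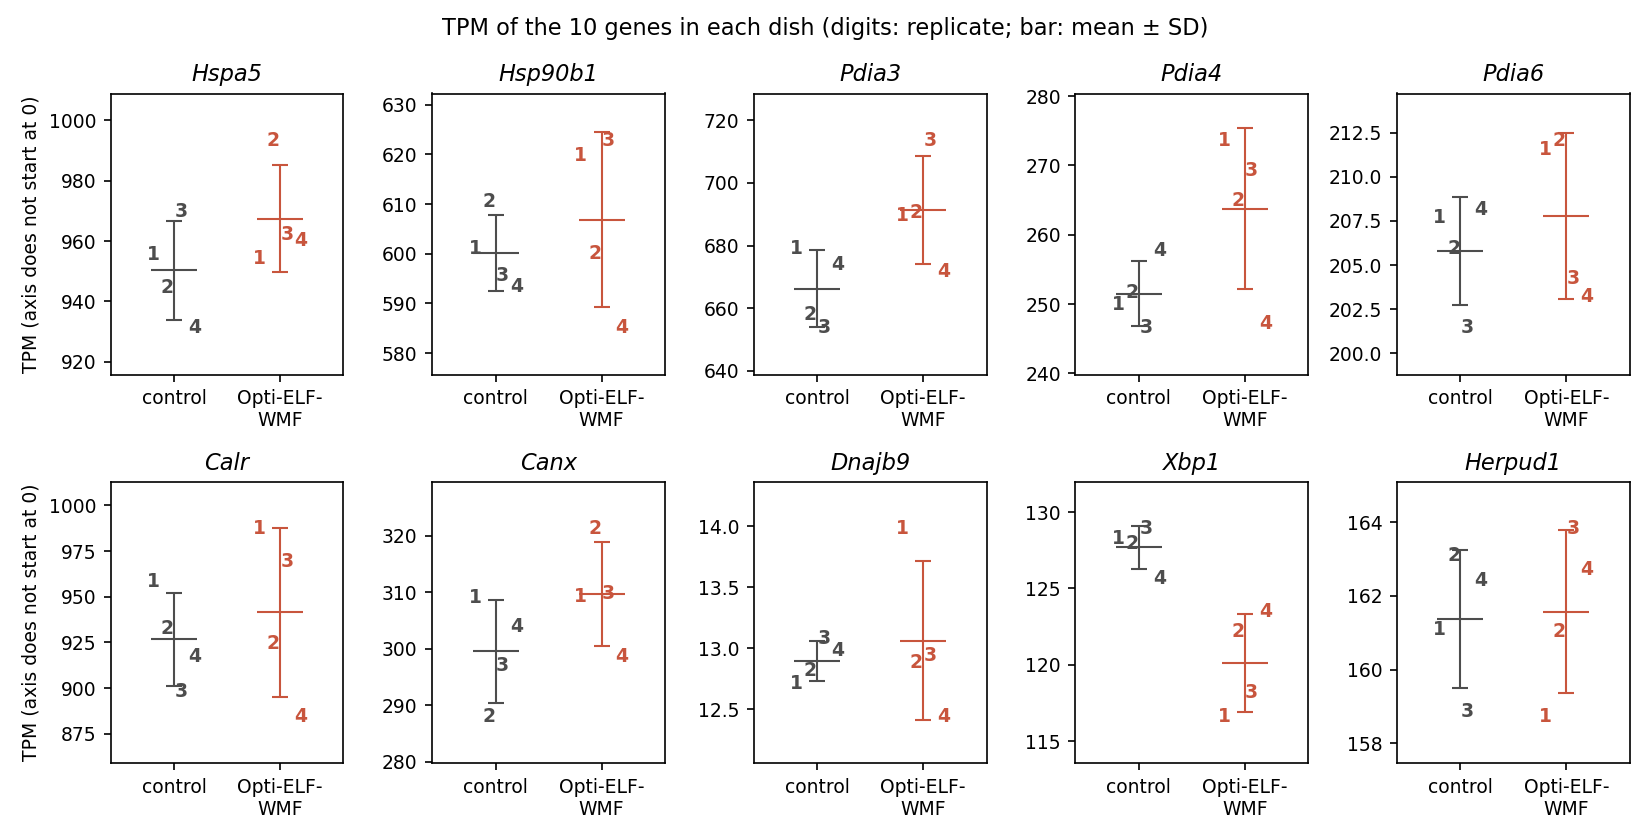
TPM of each of the 10 genes in each dish, with 1 panel per gene, the control dishes in grey and the Opti-ELF-WMF dishes in red. Digits give the replicate number, horizontal bars the mean and vertical bars the SD (n = 4); the y axes do not start at 0. The groups are apart in Xbp1 alone, where all exposed dishes lie at or under 123.5 TPM and all control dishes at or above 125.6 TPM.

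Xbp1 lies at chr11:5520659-5525893 on the plus strand and encodes the transcription factor of the IRE1 branch. Its TPM was 128.3, 127.9, 128.9 and 125.6 in control replicates 1 to 4 and 116.6, 122.2, 118.2 and 123.5 in exposed replicates 1 to 4. All 4 exposed dishes lay below all 4 control dishes, with exposed replicates 1 and 3 the farthest. The means were 127.7 ± 1.43 (SD, n = 4) and 120.1 ± 3.24 (SD, n = 4). The log2 fold change on the log2(TPM + 1) scale was -0.088 (standard error 0.026, 95% confidence interval -0.15 to -0.029), a difference of -5.90%. The unadjusted limma p was 0.00783 and the adjusted limma p 0.168, so that the difference did not pass the test over all genes. There were 563 tested genes with a smaller p, 115 of them lower in exposed dishes. The value stayed below 0 under every one of the 17 alternative fits, from -0.12 to -0.074, with an adjusted limma p from 0.163 to 0.311 and an unadjusted p from 5.69e-04 to 0.023. Without mitochondrial genes in the TPM total, the log2 fold change was -0.12.

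The other 9 genes gave point estimates from +0.126% to +4.81%, with unadjusted limma p from 0.0595 to 0.936. With the deposited TPM and all dishes, the 95% confidence intervals of these 9 reached from -5.83% at the lowest (Dnajb9) to +10.3% at the highest (Pdia4). Larger differences in either direction lay outside every interval of that fit, which does not cover the other scalings or a dish left out. The control dishes were close to each other: over the 10 genes, the coefficient of variation ran from 1.12% in Xbp1 to 3.04% in Canx.

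**Figure D2:**
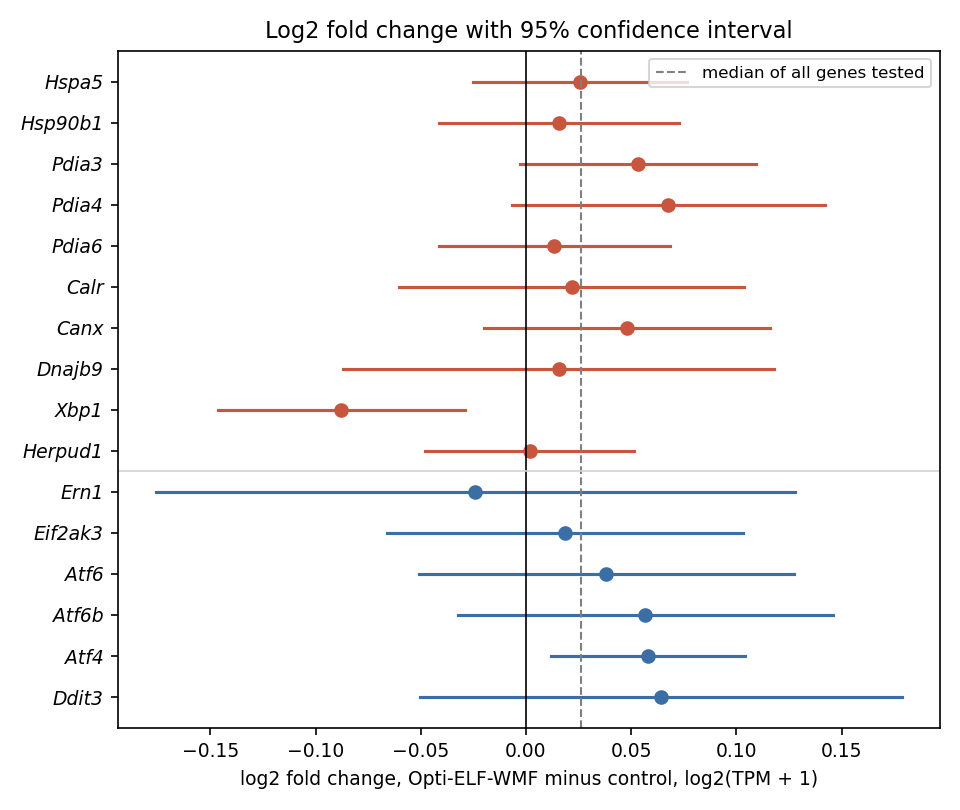
Log2 fold change, Opti-ELF-WMF minus control, on the log2(TPM + 1) scale for the 10 genes (red) and for the 3 sensors, Atf6b, Atf4 and Ddit3 (blue). Points are limma estimates and lines 95% confidence intervals; the dashed line is the median of all tested genes, 0.026. Only the intervals of Xbp1, below 0, and Atf4, above 0, leave out 0, both with adjusted p above 0.05; the estimate for Atf4 is 0.058 here and 0.024 under upper-quartile scaling.

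Hspa5 encodes BiP, the Hsp70 chaperone of the ER that binds unfolded chains and holds the sensors in check. The gene lies at chr2:34771970-34777547 on the plus strand. Its TPM was 955.6, 944.7, 969.7 and 931.2 in the control dishes and 954.2, 993.4, 962.0 and 960.1 in the exposed dishes, and the groups overlapped. The means were 950.3 ± 16.3 and 967.4 ± 17.6 (SD, n = 4 each). The log2 fold change was 0.026 (standard error 0.023, limma adjusted p = 0.641). Hsp90b1, at chr10:86690209-86705509 on the minus strand, encodes GRP94, the Hsp90 chaperone of the ER. Its means were 600.2 ± 7.67 and 606.9 ± 17.7 TPM (SD, n = 4 each), and exposed dishes lay both above and below the whole control range. Dnajb9, a co-chaperone of BiP known as ERdj4, at chr12:44205559-44210326 on the minus strand, had the lowest level of the 10 with 12.9 ± 0.165 and 13.1 ± 0.653 TPM (SD, n = 4 each). Its exposed replicate 1 stood at 13.98 TPM and its exposed replicate 4 at 12.44 TPM, above and below all control dishes.

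The protein disulfide isomerases form and rearrange disulfide bonds in the ER. Pdia4 lies at chr6:47796141-47813430 on the minus strand. Its TPM was 249.9, 251.6, 246.6 and 257.7 in the control dishes and 273.6, 264.9, 269.3 and 247.2 in the exposed dishes. The first 3 exposed dishes were above every control dish, and exposed replicate 4 was within the control range. The log2 fold change was 0.068 (standard error 0.033, limma adjusted p = 0.366). Pdia3 (ERp57, the partner of calnexin and calreticulin, chr2:121413775-121438687, plus strand) had 679.1, 658.0, 653.7 and 674.0 TPM in the control dishes and 689.6, 690.6, 713.6 and 671.7 TPM in the exposed dishes. Again the first 3 exposed dishes were above every control dish and replicate 4 was not. Its log2 fold change was 0.053 (standard error 0.025, limma adjusted p = 0.346). Under upper-quartile scaling, median-of-ratios scaling and rescaling without mitochondrial genes, Pdia4 had 0.034, 0.038 and 0.038 and Pdia3 0.020, 0.024 and 0.024. Pdia6 (chr12:17266545-17284770, plus strand) had means of 205.8 ± 3.05 and 207.8 ± 4.69 TPM (SD, n = 4 each), with overlapping dishes.

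Calreticulin and calnexin are the lectin chaperones that hold newly made glycoproteins during folding. Calr (chr8:84841850-84846934, minus strand) had 958.4, 932.8, 898.4 and 917.3 TPM in the control dishes and 987.1, 924.5, 969.5 and 884.6 TPM in the exposed dishes. The exposed dishes covered a wider range than the control dishes, on both sides. Canx (chr11:50293961-50325673, minus strand) had means of 299.5 ± 9.11 and 309.7 ± 9.24 TPM (SD, n = 4 each). Of its exposed dishes, 3 lay above all control dishes, the highest of which reached 309.1 TPM. Herpud1 (chr8:94386438-94395377, plus strand), which serves the removal of misfolded proteins from the ER and held the most element types in its promoter, had 161.4 ± 1.88 and 161.6 ± 2.22 TPM (SD, n = 4 each). Its log2 fold change of 0.0018 (standard error 0.022, limma adjusted p = 0.982) was the smallest of the 10 in size with the deposited TPM, but was -0.032, -0.027 and -0.028 under upper-quartile scaling, median-of-ratios scaling and rescaling without mitochondrial genes, where Hspa5 had the smallest.

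In order of the mean TPM of control dishes, Hspa5 was followed by Calr, Pdia3, Hsp90b1, Canx, Pdia4, Pdia6, Herpud1, Xbp1 and Dnajb9. Hspa5 and Calr overlapped between dishes, and each other pair of neighbours in that order was apart in all 8 dishes. Hspa5 ranked 145th among the 12122 tested genes and Dnajb9 7765th. Summed over the 10 genes, TPM was 4263, 4196, 4163 and 4187 in the control dishes and 4334, 4303, 4346 and 4149 in the exposed dishes. The sum was 4202 ± 42.7 against 4283 ± 91.1 (SD, n = 4 each), or 0.42% and 0.428% of all TPM, and the exposed range contained the lowest and the highest dish. The difference, 81.0 TPM, was -17.9, -5.09 and -7.14 under upper-quartile scaling, median-of-ratios scaling and rescaling without mitochondrial genes, and 125.6 without exposed replicate 4.

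**Figure D3:**
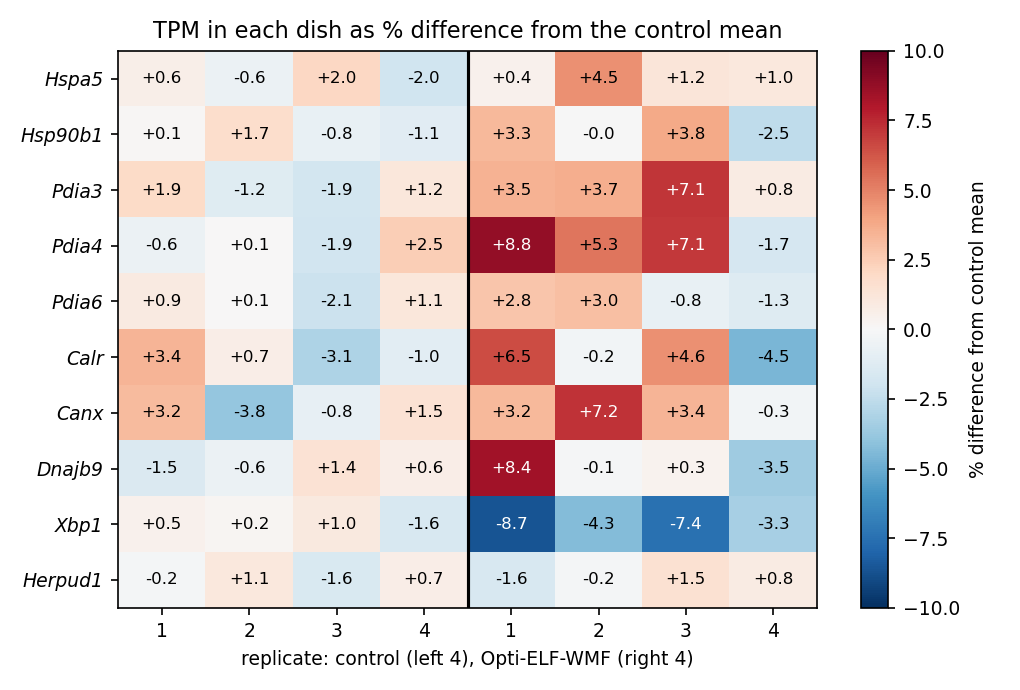
TPM of each of the 10 genes in each dish (control replicates 1 to 4 on the left and Opti-ELF-WMF replicates 1 to 4 on the right) as percent difference from the mean of the control dishes. Blue is lower and red higher. Pdia4 and Dnajb9 are highest, and Xbp1 lowest, in exposed replicate 1, while in exposed replicate 4 Hsp90b1, Pdia4, Pdia6, Calr, Canx, Dnajb9 and Xbp1 are under the control mean.

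The dishes of the exposed group differed among themselves. Exposed replicate 4 was the lowest exposed dish in 7 of the 10 genes (Hsp90b1, Pdia3, Pdia4, Pdia6, Calr, Canx and Dnajb9), against 23.6% of all tested genes. Exposed replicate 1 was the lowest in the other 3, against 39.5%. For the tested genes of the wider ER lists read below, these shares were 33.1% and 32.3%. Without exposed replicate 4, the number of the 10 genes with an unadjusted limma p under 0.05 went from 1 to 3: Pdia3 and Pdia4, higher, against 11.9% of all tested genes in the same fit, and Xbp1, lower, against 3.94%. The number whose groups did not overlap went from 1 to 4: Pdia3, Pdia4 and Canx, higher, against 11.7% of tested genes with the same 7 dishes, and Xbp1, lower, against 3.59%. For Canx the margin was small, with 309.2 TPM in exposed replicate 1 and 309.09 TPM in control replicate 1. The counts without exposed replicate 4 were made with the deposited TPM only. The log2 fold change of Pdia4 was then 0.098 (limma adjusted p = 0.157) and that of Pdia3 0.067 (limma adjusted p = 0.253), and none of the 10 passed the adjusted test. This dish was looked at because it was low in these genes, so that higher counts without it follow in part from the choice. With any of the other 7 dishes left out, both counts were 1 (Xbp1).

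Around their group means, some of the genes moved together from dish to dish. Hsp90b1 and Calr had the highest Pearson r of the 45 pairs, 0.88 over 8 dishes (Spearman's rho 0.79), and 0.363% of the other tested genes had an r with Hsp90b1 at least as high. Xbp1 had a negative r with 7 of the other 9 genes: -0.88 with Pdia4 (Spearman's rho -0.86), -0.78 with Dnajb9, -0.78 with Calr, -0.75 with Hsp90b1, -0.57 with Pdia3, -0.36 with Pdia6 and -0.15 with Canx. With Hspa5 its r was 0.58 (Spearman's rho 0.60), and with Herpud1 0.12. Of the other tested genes, 0.264% had an r with Xbp1 as low as that of Pdia4. The pairs Hsp90b1 with Calr and Xbp1 with Pdia4 were picked as the highest and lowest of the 45. Their small shares therefore follow in part from that choice. Over all 45 pairs the median r was 0.12. These values describe 8 libraries that share a fixed TPM total within each dish, and no test was made of them.

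The 5 tested genes outside the lists whose pattern was most like the mean z-score of the 10 were Psma6, Efemp1, Lnpk, Zwint and Dap. Psma6, a proteasome subunit, had a Pearson r of 0.97 with that score over the 8 dishes (Spearman's rho 0.98). The others had r from 0.93 to 0.94. These 5 were the highest of 11952 genes compared, of which 24 had r over 0.9. Psma6 had 152.2 TPM in control and 158.0 TPM in exposed dishes, and none of the 5 passed the adjusted limma test.

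The wider machinery was read in 7 lists of 139 genes, of which 127 were tested. Among these 127, 24 were higher and 1 was lower at an unadjusted limma p under 0.05, that is 18.9% higher against 12.0% of all tested genes. None passed the adjusted test. Their median log2 fold change was 0.033, beside 0.019 for the 10 genes and 0.026 for all tested genes. Under upper-quartile scaling, median-of-ratios scaling and TPM rescaled without mitochondrial genes, 9, 9 and 11 of them were higher and 4, 3 and 2 lower at that threshold. Their median became 0.00056, 0.0049 and 0.0045, beside -0.014, -0.0096 and -0.010 for the 10 genes. For all tested genes it became -0.0053, -0.0013 and -0.0015. Of all tested genes 4.85%, 5.55% and 5.72% were then higher and 6.61%, 6.23% and 5.58% lower, and the higher share of the genes under it went from 76.6% to 42.3%, 47.1% and 50.7%.

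**Figure D4:**
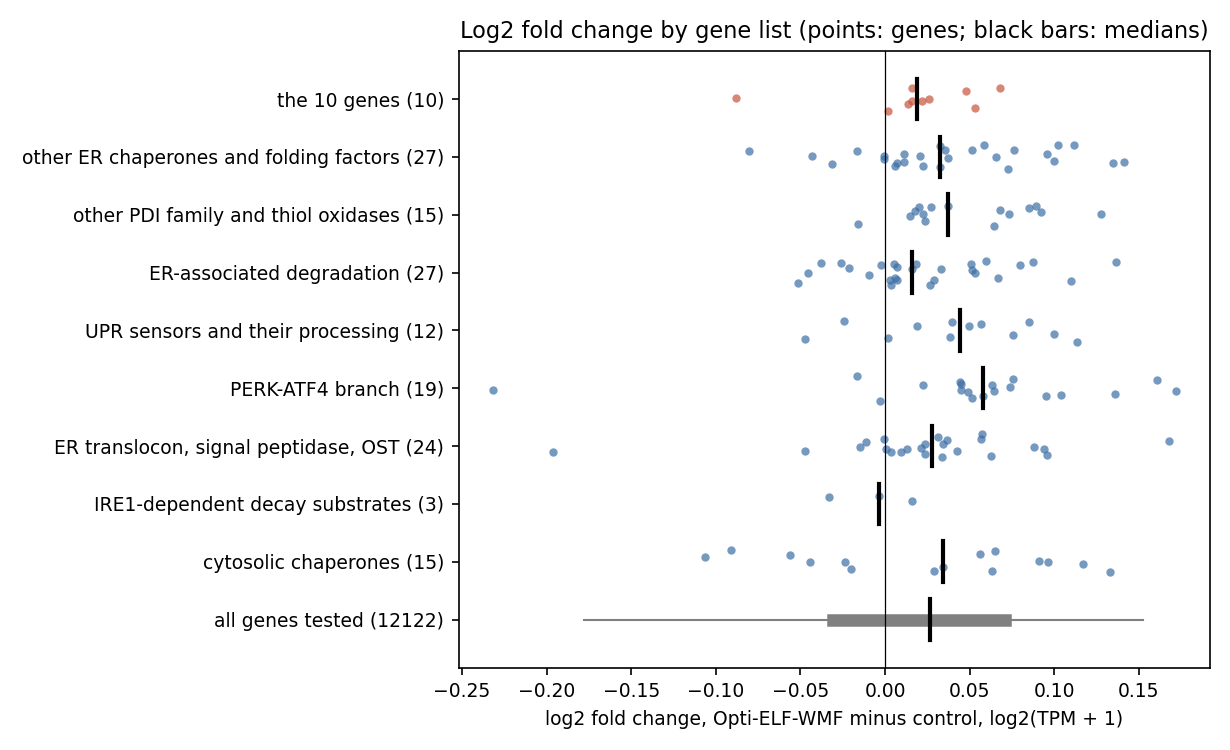
Log2 fold change, Opti-ELF-WMF minus control, of the tested genes of each list (points; number tested in brackets), with the median of each list as a black bar. OST stands for oligosaccharyltransferase. For all tested genes the thick grey bar runs from percentile 25 to 75 and the thin line from percentile 5 to 95. List medians lie between -0.0035 and 0.058, and the median of all tested genes at 0.026. Under the 3 other scalings, the medians of the 10 genes, of ER-associated degradation, of the translocon list and of all tested genes turn below 0. The median of the transcripts cleaved by IRE1, -0.0035 here, then lies between -0.037 and -0.033.

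The sensors gave values near those of the 10 genes. Ern1 had 9.48 ± 0.464 TPM in control and 9.32 ± 0.852 TPM in exposed dishes (SD, n = 4 each), with a log2 fold change of -0.024 (limma adjusted p = 0.904). Eif2ak3 had a log2 fold change of 0.019, Atf6 of 0.038 and Atf6b of 0.057, with adjusted limma p of 0.860, 0.701 and 0.537. Under upper-quartile scaling, median-of-ratios scaling and rescaling without mitochondrial genes, Ern1 had -0.055, -0.051 and -0.051, and Eif2ak3 -0.014, -0.0097 and -0.010. Atf6 then had 0.0065, 0.011 and 0.010, and Atf6b 0.024, 0.028 and 0.028. In the list of sensors and their processing, 12 of 14 genes were tested and 1 was higher and 0 lower at an unadjusted limma p under 0.05, against 12.0% and 3.65% of all tested genes; under the 3 other scalings 1 was higher, and Creb3l2 was lower in 2 of them. Without exposed replicate 1 or control replicate 1, 3 were higher, and without control replicate 2, 2. The gene that was higher with all dishes was Rtcb, the ligase that joins the cleaved Xbp1 messenger RNA, with 108.5 ± 2.86 against 116.4 ± 3.68 TPM (SD, n = 4 each) and groups that did not overlap. Its log2 fold change was 0.10 (standard error 0.031, limma adjusted p = 0.177), and 0.067 under upper-quartile scaling. With the deposited TPM, 1 gene of this list (8.33%) lay higher without overlap, against 8.01% of all tested genes. Traf2, an adaptor of IRE1, had 0.075 (limma adjusted p = 0.372), and Creb3l2, a transcription factor of the ER membrane, -0.047 (limma adjusted p = 0.628). Of the transcripts known to be cleaved by IRE1, 3 of 6 were tested and none had an unadjusted p under 0.05. The log2 fold changes were -0.0035 for Bloc1s1, 0.016 for Sparc and -0.033 for Hgsnat. Under upper-quartile scaling, median-of-ratios scaling and rescaling without mitochondrial genes, Bloc1s1 had -0.037, -0.033 and -0.033. Sparc then had -0.017, -0.013 and -0.014, and Hgsnat -0.066, -0.061 and -0.062.

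In the PERK-ATF4 list, 19 of 19 genes were tested, 7 of them were higher and 0 lower at an unadjusted limma p under 0.05, against 12.0% and 3.65% of all tested genes. In 6, all higher, the groups did not overlap, against 8.01% of tested genes. That share was 3.37%, 3.80% and 3.83% under upper-quartile scaling, median-of-ratios scaling and rescaling without mitochondrial genes. For the list, overlap was counted with the deposited TPM only. The median log2 fold change of the list was 0.058, and 0.024, 0.029 and 0.028 under those scalings. Atf4 itself had 300.3 ± 3.72 TPM in control and 312.7 ± 3.17 TPM in exposed dishes (SD, n = 4 each), with all exposed dishes above all control dishes. Its log2 fold change was 0.058 (standard error 0.021, limma adjusted p = 0.217), and 0.024, 0.029 and 0.028 under upper-quartile scaling, median-of-ratios scaling and rescaling without mitochondrial genes (limma adjusted p = 0.726, 0.672 and 0.611). Phgdh, which starts serine synthesis, had 396.8 ± 18.5 against 443.3 ± 7.12 TPM and a log2 fold change of 0.16 (limma adjusted p = 0.122). Ppp1r15a (GADD34), which guides the removal of the phosphate that PERK adds, had 15.7 ± 0.635 against 17.8 ± 0.666 TPM and 0.17 (limma adjusted p = 0.139). Ddit3, the stress factor CHOP, had 34.6 ± 0.429 against 36.3 ± 2.82 TPM with overlapping dishes (limma adjusted p = 0.596). The lower genes with the smallest p were Cebpb at -0.23 (limma adjusted p = 0.570; between -0.36 without control replicate 4 and -0.071 without control replicate 1) and Ddit4 at -0.017 (limma adjusted p = 0.901). Under the same 3 scalings 3, 3 and 4 genes of the list were higher and 0 lower at that threshold, against 4.85%, 5.55% and 5.72% of tested genes higher. With a dish left out, from 5 to 7 were higher. Without control replicate 3, and with eBayes without trend, 5 were higher and Atf4 was not among them. Without control replicate 4, 6 were higher and 1 (Cebpb) was lower.

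Among other ER chaperones and folding factors, 27 of 30 genes were tested, and 4 were higher and 0 lower at an unadjusted limma p under 0.05, against 12.0% and 3.65% of all tested genes. Cnpy3, a partner of GRP94, had 40.4 ± 1.15 against 43.5 ± 1.23 TPM and a log2 fold change of 0.10 (limma adjusted p = 0.194). Ppib, the cyclophilin of the ER, had 513.3 ± 13.5 against 539.9 ± 13.3 TPM and 0.073 (limma adjusted p = 0.239). Under upper-quartile scaling, Cnpy3 had 0.069 and Ppib 0.039. With the deposited TPM, the groups did not overlap in both genes. That held for 3 genes of the list, all higher (11.1%), against 8.01% of all tested genes. Creld1 (-0.080) and Mogs (-0.043) were the lower genes with the smallest p. Under upper-quartile scaling, median-of-ratios scaling and rescaling without mitochondrial genes, 1 gene of this list (Cnpy3) was higher and 2, 1 and 0 were lower at that threshold. The 4 became 1 without exposed replicate 1 or 2, 2 without control replicate 1 or 3, and 6 without exposed replicate 4. With eBayes without trend, 2 were higher (Hspa13 and Cnpy3). Of the other isomerases and thiol oxidases, 15 of 18 were tested, and 3 were higher and 0 lower at the same threshold, or 1 (Erp29) and 0 under each of these scalings and without exposed replicate 2. Erp29 stood out there with 63.5 ± 1.46 against 69.4 ± 1.84 TPM and a log2 fold change of 0.13 (standard error 0.030, limma adjusted p = 0.126). Under upper-quartile scaling, Erp29 had 0.094. With the deposited TPM, its groups did not overlap. That held for 2 genes of this list, both higher (13.3%), against 8.01% of all tested genes. Tmx1, a membrane-bound member of the family, had 0.092 (limma adjusted p = 0.269). Ero1a, which oxidises the isomerases, had -0.016 (limma adjusted p = 0.885).

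In ER-associated degradation, 27 of 28 genes were tested, and 5 were higher and 0 lower at an unadjusted limma p under 0.05, against 12.0% and 3.65% of all tested genes. Vcp, the ATPase that pulls proteins out of the ER membrane, had 197.8 ± 2.85 against 213.6 ± 6.73 TPM and a log2 fold change of 0.11 (standard error 0.027, limma adjusted p = 0.133). Ngly1, which strips sugars from the extracted proteins, had 0.14 (limma adjusted p = 0.223). Under upper-quartile scaling, Vcp had 0.076 and Ngly1 0.11. With the deposited TPM, the groups did not overlap in these 2 genes. They were 7.41% of the tested genes of the list, against 8.01% of all tested genes lying higher without overlap. Derl2 (-0.052) and Ufd1 (-0.046) were the lower genes with the smallest p. Under upper-quartile scaling, median-of-ratios scaling and rescaling without mitochondrial genes, 1, 1 and 2 genes of this list were higher and 0, 0 and 1 lower. The 5 became 1 without exposed replicate 3, 2 without exposed replicate 2 or control replicate 3, and 3 without exposed replicate 1 or control replicate 1 or 4. The median of the list, 0.016, was -0.00076 without exposed replicate 2. In the list of the translocon, signal peptidase and oligosaccharyltransferase, all 24 genes were tested, and 4 were higher and 1 lower at the same threshold, or 2 and 1 under each of these scalings. Sec63, which recruits BiP to the translocon, had 61.8 ± 2.81 against 69.6 ± 3.09 TPM and 0.17 (limma adjusted p = 0.134), and Rpn2, a subunit of the oligosaccharyltransferase, had 0.094 (limma adjusted p = 0.142). Sec61g, the smallest subunit of the translocon channel, was the lower gene, with 131.6 ± 17.4 against 114.1 ± 4.56 TPM and -0.20 (limma adjusted p = 0.282; from -0.27 to -0.13 with a dish left out). It was no longer under that threshold without exposed replicate 2, 3 or 4 or control replicate 2 or 3. The same held with eBayes without trend and with genes kept at TPM above 0 in any sample. Ostc had -0.047 (limma adjusted p = 0.683).

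The cytosolic chaperones served as a comparison outside the ER. Of 15 genes, 6 were higher and 0 lower at an unadjusted limma p under 0.05, against 12.0% and 3.65% of all tested genes, with a median log2 fold change of 0.034. Hspa4 had 198.6 ± 4.51 against 217.8 ± 3.64 TPM (SD, n = 4 each) and a log2 fold change of 0.13 (limma adjusted p = 0.122). Under upper-quartile scaling, Hspa4 had 0.0996. With the deposited TPM, its groups did not overlap. That held for 5 genes of this list, all higher (33.3%), against 8.01% of all tested genes. Ahsa1, the activator of Hsp90, had 0.12 (limma adjusted p = 0.122). The heat-inducible Hspa1a had -0.11 (limma adjusted p = 0.584) and Chordc1 -0.091 (limma adjusted p = 0.388). Under each of the 3 other scalings, 3 genes were higher (Hspa4, Hsp90ab1 and Ahsa1) and 1 was lower (Chordc1) at that threshold. With eBayes without trend, the same 3 were higher and 0 lower. The median was 0.00077, 0.0051 and 0.0047 under upper-quartile scaling, median-of-ratios scaling and rescaling without mitochondrial genes. It ran from 0.020 to 0.061 with a dish left out. The difference between these lists and the 10 genes was not tested.

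The composition of the libraries moved with the condition. Genes of mitochondrial DNA took 8.94 ± 0.336% of TPM in control dishes and 7.04 ± 0.764% in exposed dishes (SD, n = 4 each), and the highest exposed dish, at 7.69%, was below the lowest control dish, at 8.69%. The nuclear RNAs Malat1 and Neat1 had log2 fold changes of -0.41 and -0.30 (limma adjusted p = 0.139 and 0.122). How far these RNAs bear on the values above was not tested. With the mitochondrial genes taken out of the total, the 10 genes had a median of -0.010 in place of 0.019, Xbp1 had -0.12 in place of -0.088, and the tested genes as a whole had -0.0015 in place of 0.026.

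**Figure D5:**
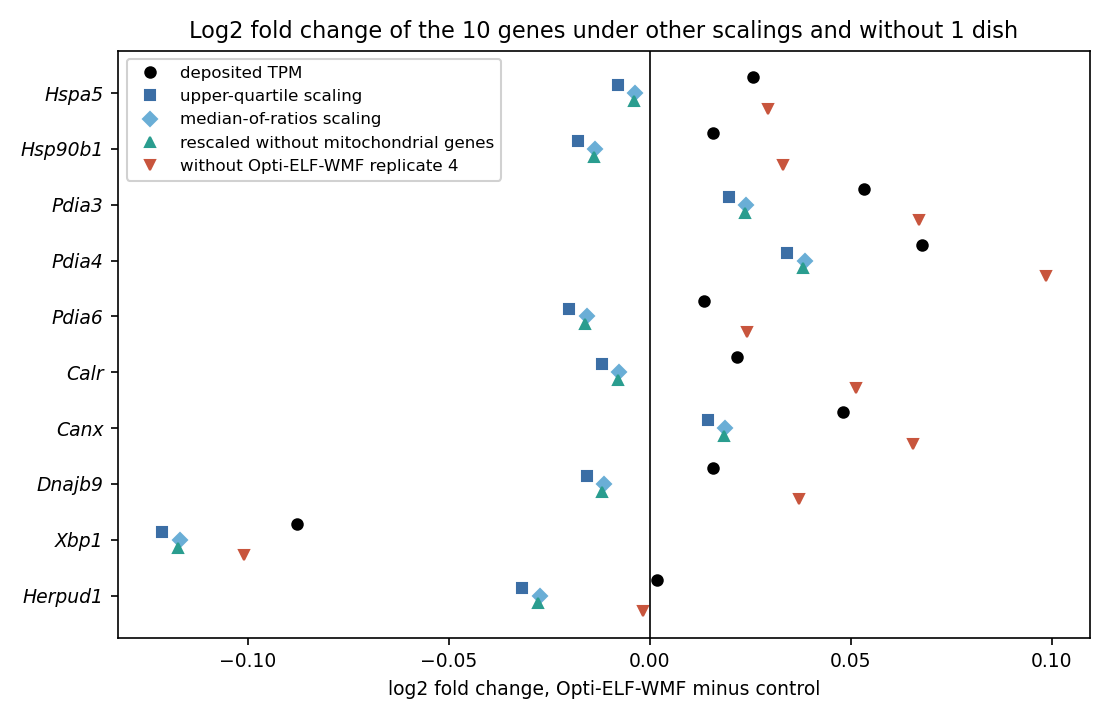
Log2 fold change of the 10 genes, Opti-ELF-WMF minus control, with the deposited TPM (black), under 3 other scalings (blue squares, light blue diamonds, green triangles) and without exposed replicate 4 (red). The 3 scalings move every gene to the left by about the same amount, which turns 6 genes from above to below 0 and leaves Xbp1 at -0.12.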

How the data were processed

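The authors extracted total RNA from 4 control and 4 exposed dishes, prepared stranded mRNA libraries (TruSeq) and sequenced paired ends on a NovaSeq. The authors deposited TPM values, with 1 table of 55401 genes per dish. The submitters' processing notes name Trimmomatic 0.39, STAR 2.7.4a, RSEM 1.3.3 and build mm10. The annotation release and the strand setting of the quantification are not given in the sources used here. TPM keeps no depth, so no interval from counting is given.

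The 10 genes and the gene lists were chosen with earlier results of these data known. The tables were joined by gene ID. Genes with TPM of at least 1 in at least 4 of 8 samples (12122) were fitted with limma 3.58.1 in R 4.3.3 (lmFit, then eBayes with trend) on log2(TPM + 1), with condition as the only term, two-sided tests and Benjamini-Hochberg adjustment over all of them. Fold changes on this scale understate those of low genes. A list is described by its counts and its median beside those of all tested genes. The text names all 10 genes, the sensors, Atf4 and Ddit3, the 2 higher and 2 lower tested genes with the smallest p in each other list, and the 5 genes outside the lists most like the mean z-score of the 10.

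Gene positions are from GENCODE M21 (GRCm38) and promoter sequences from RefSeq (GRCm38.p6). Transcripts of the 10 genes were compared with all GENCODE transcripts by BLAST 2.17.0 at 90% identity or more. Calr had a match to Calr-ps (at most 0.21 TPM) and Dnajb9 to Gm6568 (at most 0.39 TPM). Hsp90b1 had matches to 1810014B01Rik, which overlaps it on the other strand (at most 18.7 TPM), to Gm15344, which overlaps it on its own strand (at most 5.06 TPM), and to Cbs (a mean of 11.3 TPM in control dishes). Reads of these may be shared. Where a symbol had more than 1 gene ID, as Ddit3 did, the ID with the higher mean was used. Alternatives were other pseudocounts (0.1 and 5), other filters, 3 other scalings, eBayes without trend, a replicate block, each sample left out, and promoter windows ended at the start.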

Additional observations from a re-analysis of the deposited data

Results flagged for a closer look

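In 5 groups of 4 dishes a single dish stood apart from the other 3. Ern1 was 8.78 TPM in control replicate 4, with the other control dishes from 9.68 to 9.74 TPM. Ppib was 493.3 TPM in control replicate 3, with the others from 518.2 to 522.3 TPM. Phgdh was 369.4 TPM in control replicate 2, with the others from 403.2 to 410.0 TPM. Ostc was 107.9 TPM in control replicate 1, with the others from 115.0 to 115.8 TPM. Neat1 was 232.7 TPM in control replicate 1, with the others from 251.0 to 251.3 TPM. Chance gives such a dish in about 1 of 20 groups, which is 6.5 of the 130 groups examined. None of the 10 ER chaperone and unfolded protein response genes was among them.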

How the results depend on the processing

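Across 17 alternative fits, none of the 50 named genes passed an adjusted limma p under 0.05, and the count of the 10 genes passing it was 0 in each. Xbp1 was below 0 in each. The fit with a replicate block left 0 genes with an adjusted p under 0.05, 1 of the 10 genes (Xbp1) at an unadjusted p under 0.05 and 23 of the list genes. No adjusted call changed, but at an unadjusted p under 0.05 Sec61g was no longer among the lower genes, Chordc1 was, and the count for ER-associated degradation was 4 in place of 5. Same-numbered dishes did not deviate together (r from -0.042 to 0.026), so the samples were not treated as pairs. The highest r of a control with any exposed dish was 0.161, so this check cannot exclude a pairing with a small shared effect.

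The number of genes past an adjusted p under 0.05 was 0 as reported and 1 (1110028F11Rik) with TPM of at least 1 in every sample, without trend, and with median-of-ratios and upper-quartile scaling. It was 2 (1110028F11Rik and Gm15446) with pseudocount 5, and between 0 and 2 with a dish left out (Fgfr3 and Gm15446 without control replicate 2; Gm7329 without control replicate 3). Scaled by median-of-ratios, then with mitochondrial genes taken out of TPM, then by upper quartile, the median log2 fold change of the 10 genes was -0.0096, -0.010 and -0.014, the difference of their summed TPM -5.09, -7.14 and -17.9 (81.0 as reported), and the list genes at an unadjusted p under 0.05 numbered 12, 13 and 13 (25 as reported). These log2 fold changes turned below 0, in the same order: Hspa5 -0.0036, -0.0040 and -0.0080; Hsp90b1 -0.014, -0.014 and -0.018; Pdia6 -0.016, -0.016 and -0.020; Calr -0.0076, -0.0080 and -0.012; Dnajb9 -0.012, -0.012 and -0.016; Herpud1 -0.027, -0.028 and -0.032; Eif2ak3 -0.0097, -0.010 and -0.014; Sparc -0.013, -0.014 and -0.017; and Efemp1 -0.00088, -0.0013 and -0.0052. All had adjusted p above 0.05 before and after, and the cause was not tested.

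With each dish left out in turn, the median of the 10 genes ran from 0.0079 to 0.035, the difference of their summed TPM from 60.0 to 125.6, their count at an unadjusted p under 0.05 from 1 to 3, their count without overlap from 1 to 4, and the list genes at an unadjusted p under 0.05 from 15 to 24. Signs turned in Calr (-0.0015 to 0.051), Dnajb9 (-0.015 to 0.037), Herpud1 (-0.0057 to 0.010), Ern1 (-0.064 to 0.016), Sparc (-0.0067 to 0.034), Bloc1s1 (-0.021 to 0.017), Ero1a (-0.041 to 0.014), Hgsnat (-0.073 to 0.00094) and Ddit4 (-0.049 to 0.018). Of the 41 named genes that kept their sign, 18 moved by over 1.5 times, among them Hspa5 (0.013 to 0.036), Hsp90b1 (0.0031 to 0.033), Pdia6 (0.0034 to 0.024), Canx (0.029 to 0.065) and Cebpb (-0.36 to -0.071). The others were Eif2ak3 (0.0026 to 0.037), Atf6 (0.021 to 0.050), Atf6b (0.033 to 0.081), Ddit3 (0.028 to 0.10) and Efemp1 (0.017 to 0.043). Below 0, they were Creld1 (-0.11 to -0.044), Mogs (-0.061 to -0.018), Derl2 (-0.071 to -0.024), Ufd1 (-0.073 to -0.021) and Creb3l2 (-0.077 to -0.018). Sec61g (-0.27 to -0.13), Ostc (-0.084 to -0.017) and Hspa1a (-0.16 to -0.065) were also among them. The higher counts for the 10 genes came without Opti-ELF-WMF replicate 4, and the lowest count of list genes without Opti-ELF-WMF replicate 2 and without control replicate 3. With only the bases before the start, the same number of the 10 genes held ERSE (also with any last base), ERSE-II, UPRE and CARE, 7 in place of 8 held CCACG, and 0.113% of all windows held the exact ERSE.

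Limits: 4 dishes per condition from 1 batch of culture, 1 time point, gene-level TPM without depth, no measure of Xbp1 splicing or of protein, and exposure and incubator that cannot be told apart.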

Other observations

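Tested genes were also grouped by the elements in their promoters. These groups share genes with the comparisons above. The group with the last base of ERSE left free holds 8 of the 10 genes and every gene with an exact ERSE. Herpud1 is in the groups of ERSE-II and TTGCATCA. Of 14 tested genes with an exact ERSE, the 5 chaperones included, 11 had a log2 fold change above 0 and 1 an unadjusted limma p under 0.05, with a median of 0.015. Of 38 with the last base left free, 25 were above 0 and 2 were higher and 0 lower at that threshold, with a median of 0.016. Of 9 with ERSE-II, 3 were higher and 0 lower at that threshold, with a median of 0.0068. Of 91 with TGACGTGG, 17 were higher and 4 lower, with a median of 0.038. Of 62 with TTGCATCA, 9 were higher and 2 lower, with a median of 0.040. None of these genes passed the adjusted test. Of all 12122 tested genes, 7720 had a log2 fold change above 0, 12.0% were higher and 3.65% lower at that threshold, and the median was 0.026. Under upper-quartile scaling, median-of-ratios scaling and rescaling without mitochondrial genes, 4, 4 and 4 of the 14 genes with an exact ERSE were above 0, with medians of -0.019, -0.015 and -0.015. The medians for ERSE with a free last base and for ERSE-II also turned below 0. Those for TGACGTGG became 0.0063, 0.0094 and 0.0092 (8, 9 and 10 genes higher and 9, 7 and 6 lower at that threshold). Those for TTGCATCA became 0.0097, 0.014 and 0.014 (3, 3 and 4 genes higher and 2 lower in each). With ERSE-II, and with the last base of ERSE left free, 1 gene was higher and 1 lower in each. Of the 14 genes with an exact ERSE, 0 were higher and 1, 1 and 0 lower.

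Among the hepatocyte markers, the keratins Krt8 and Krt18 had log2 fold changes of 0.071 and 0.091 with groups that did not overlap (limma adjusted p = 0.194 and 0.166), while Alb had -0.15 (limma adjusted p = 0.210).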
